A study of Mus musculus with 6 samples.

Results

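Chitinases and chitinase-like proteins form the mouse members of glycoside hydrolase family 18 examined here. They were chosen by name as Chil3, Chil1, Chil4, Chit1, Chia1 and Ctbs, which are 6 of the 56884 genes in the table. Chil1 stands in the table under its older symbol Chi3l1 and was matched by its identifier. RNA sequencing was carried out on mature neutrophils sorted from mouse bone marrow by the surface proteins CD101 and Ly6G and kept in culture. The culture contained DKK1 (Dickkopf-1, a secreted protein that blocks Wnt co-receptors) in 3 libraries and lacked it in 3 control libraries. The sources used here do not give strain, age, DKK1 dose, length of culture or strandedness. Whether each library had its own animal or culture is not stated in the labels, so the p-values rest on a spread between libraries that may be only technical.

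Chitinases hydrolyse chitin, a polymer of N-acetylglucosamine found in fungi, arthropods and parasitic worms but not made by mice. A glutamate in a short conserved motif donates the proton for this cut, and chitinase-like proteins carry another residue there, so they bind sugars without cutting them. Chil3 (Ym1) is a secreted lectin of developing neutrophils and alternatively activated macrophages, Chil1 (BRP-39, the mouse counterpart of YKL-40) is a secreted product of neutrophils and macrophages, and Ctbs is a lysosomal enzyme that removes N-acetylglucosamine from the chitobiose core of degraded glycoproteins. The title of the series names Chil3 as the marker of immature neutrophils, so the contrast bears on whether mature cells given DKK1 carry this transcript.

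The coding sequence of the catalytic motif is what separates the enzymes from the lectins in this gene group, and it is shown for each member. The windows come from GENCODE M21 transcripts, run 5′ to 3′ over 24 bases, and were placed by alignment to Chit1. Capitals mark the codon aligned to the catalytic glutamate codon.
Chit1: gatggccttgaccttgactggGAG
Chia1: gatggactggacctggactggGAA
Ctbs: gatgggattaatatagacataGAG
Chil1: gatgggctggatctcgcctggCTC
Chil3: gatggcctcaacctggactggCAG
Chil4: gatggcctcaacctggactggCAG
The codon was GAG or GAA, both glutamate codons, in Chit1, Chia1 and Ctbs. It was CAG in Chil3 and Chil4 and CTC in Chil1. Chil3 and Chil4 were the same over the whole window, and their coding sequences were identical at 1139 of 1194 aligned bases (95.4%). Of all 50-base windows in the Chil3 transcript, 29.4% also occurred in another gene, 275 of them in Chil4 and 217 in the gene model Gm6522. Reads falling in those windows cannot be assigned to 1 gene by sequence alone, and the sources used here do not say how the authors treated such reads. Both Chil4 and Gm6522 had 0 reads in all 6 libraries. The transcripts of Chil1, Chit1, Chia1 and Ctbs shared no window of this length with another gene.

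The values are normalized counts. Each could be turned back into whole reads, with library totals of 5188116 to 9851961 reads. Library 2 of the DKK1 group was the shallowest, and its counts stood furthest from its group: chi-square per degree of freedom was 11.4 and 12.3 against the other DKK1 libraries, 2.96 between those, and 2.15 to 2.21 among controls. A limma fit on log2(normalized count + 1) tested the 16265 genes that reached a value of 1 in 3 or more libraries. Of these, 71.2% passed a Benjamini-Hochberg adjusted p of 0.05, with 35.1% higher and 36.1% lower in DKK1. Of the genes called, 49.3% were higher, against 60.8% with libraries scaled to equal total reads, which moved the median of all genes by 0.51 on the log2 scale. The transcripts of the sorting markers were nearly lost from the libraries labelled DKK1: normalized counts of Cd101 were 5249, 4902 and 5144 in control and 5.96, 1.37 and 3.27 in DKK1, and those of Ly6g were 1410.0, 1265 and 1338 in control and 4.47, 6.87 and 6.53 in DKK1. Whether both groups held the same kind of cell at harvest was not tested. All 10 markers of mature neutrophils, the sorted population, fell, and their summed normalized count went from 665543 to 690776 in control to 3099 to 3572 in DKK1, with no marker at 0 in either group. The 12 macrophage markers summed to 4744 to 4973 in control and 29377 to 31122 in DKK1, with 5 higher, 5 lower and 2 not past the threshold. Most of the DKK1 sum came from Gpnmb (3.17 ± 1.81 to 14292 ± 1096) and Cd68 (902 ± 43.7 to 10121 ± 286; SD, n = 3). C1qa and Cd163 were at 0 in DKK1, and Marco was at 0 in control. The part of these shifts in the results below was not tested, and in bulk RNA fewer cells of a type and less RNA per cell cannot be told apart.

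Chil3, Chil1 and Ctbs passed the filter on low values and all 3 fell with DKK1, beside the 36.1% of all tested genes that fell. In each of the 3 every control library lay above every DKK1 library, as in 37.4% of all tested genes, while 36.5% had every DKK1 library above every control. Chil4, Chit1 and Chia1 did not reach the filter and were not tested.

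**Figure D1:**
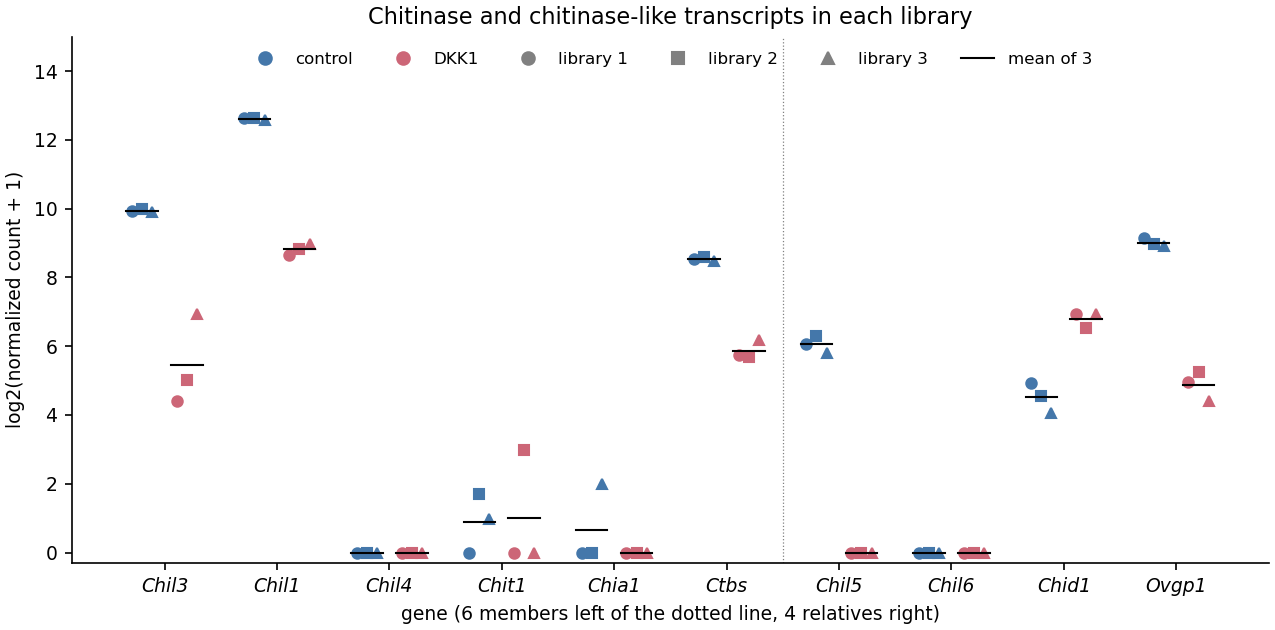
Values of log2(normalized count + 1) for the 6 members and 4 relatives in each of the 3 control (blue) and 3 DKK1 (red) libraries, with marker shape giving the library number and black bars the mean of 3. Chil3, Chil1 and Ctbs lie lower in every DKK1 library, Chid1 lies higher, and Chil3 has DKK1 library 3 at 122 above the other DKK1 libraries at 20.1 and 31.6.

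Chil1 was the most abundant transcript of the family per kilobase in both groups. It lies on chromosome 1 from 134182176 to 134190181 on the plus strand of mm10, with 10 exons (ENSMUSG00000064246.11). Its normalized counts were 6323, 6317 and 6132 in control and 405, 457 and 496 in DKK1. The groups did not overlap, and libraries within a group lay close together, with a coefficient of variation of 1.74% in control and 10.2% in DKK1. The ratio of group means, 6257 ± 109 and 453 ± 46.0 (SD, n = 3 each), was 13.8-fold lower in DKK1 (log2 change -3.79, SE 0.08, limma Benjamini-Hochberg adjusted p = 5.07e-10). The DKK1 values rest on 333 to 608 reads per DKK1 library.

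Chil3, the Ym1 lectin, fell as well but unevenly. It lies on chromosome 3 from 106147554 to 106167564 on the minus strand, with 11 exons (ENSMUSG00000040809.11). Its normalized counts were 979.6, 1008 and 952 in control and 20.1, 31.6 and 122 in DKK1. All DKK1 libraries lay below all control libraries, but library 3 stood above the other DKK1 libraries, with 150 reads against 27 and 23. Exact Poisson 95% intervals, which cover counting error only, ran from 13.3 to 29.3, from 20.0 to 47.4 and from 104 to 144 normalized counts, so library 3 differed from its group beyond counting error. The coefficient of variation rose accordingly from 2.85% in control to 96.6% in DKK1. The log2 change was -4.48 with an SE of 0.57, against 0.08 for Chil1 (limma Benjamini-Hochberg adjusted p = 0.000165), a 16.9-fold lower mean. Without DKK1 library 3 the mean was 25.9, or 37.9-fold lower, with a log2 change of -5.22 (limma Benjamini-Hochberg adjusted p = 4.18e-08).

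Among genes at a normalized count of at least 50 in DKK1 library 3, few stood as far above the other DKK1 libraries as Chil3 did. Of the 7655 genes at a normalized count of at least 50 there, Chil3 ranked 4 by its ratio to the mean of the other DKK1 libraries, computed on value + 1 (4.60), a ranking chosen after the values were seen. Ctbs ranked 301 with a ratio of 1.36 and Chil1 ranked 1225 with 1.15. The gene ranked 3 was Prg2, the eosinophil major basic protein, at 0, 4.12 and 150 in DKK1 libraries 1, 2 and 3 and 3.35 to 13.8 in control. Epx, eosinophil peroxidase, was at 0, 2.75 and 38.4 in the same DKK1 libraries and at most 1.12 in control. Genes under 50 in library 3, Epx among them, were not ranked. The 9 markers of eosinophils, basophils and mast cells summed to 102 to 276 in DKK1 and 358 to 378 in control. Of these, 3 rose, 3 fell and 3 did not pass the threshold, near the 35.1% higher and 36.1% lower over all genes tested. The genes that rose were Mcpt8, Cpa3 and Ms4a2, which mark basophils and mast cells. Those that fell were genes of eosinophil surface receptors, Siglecf (292 ± 8.65 to 1.20 ± 1.13), Ccr3 (33.6 ± 9.32 to 0.817 ± 1.41) and Il5ra (4.30 ± 1.28 to 0.272 ± 0.471; SD, n = 3), and Siglecf was at 0 in DKK1 library 3. Prg2, Epx and Fcer1a did not pass the threshold between groups. Fcer1a, also a marker of basophils and mast cells, was lower in DKK1, at 2.78 ± 1.48 and 0.544 ± 0.943 (SD, n = 3). It rested on 8 reads in control and 2 in DKK1. The part of such cells in the Chil3 value of library 3 was not tested.

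Ctbs, the lysosomal chitobiase, fell least of the tested members. It lies on chromosome 3 from 146449795 to 146465849 on the plus strand, with 7 exons (ENSMUSG00000028189.13). Its normalized counts were 367, 385 and 356 in control and 52.9, 50.8 and 71.0 in DKK1. The groups did not overlap, and library 3 was again the highest DKK1 library. The mean went from 369 ± 15.0 to 58.3 ± 11.1 (SD, n = 3 each), 6.34-fold lower (log2 change -2.66, SE 0.15, limma Benjamini-Hochberg adjusted p = 3.26e-07). Ctbs shares 169 exonic bases with Spata1 on the opposite strand, which went from 89.5 ± 11.2 to 43.0 ± 11.4 (SD, n = 3), and without a stated strand their reads there cannot be told apart.

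The true chitinases and Chil4 were at or near the limit of counting. Chit1, chitotriosidase, lies on chromosome 1 from 134111242 to 134151540, plus strand. It had 3 reads over the control libraries (0, 2.23 and 0.985 normalized counts) and 5 over the DKK1 libraries, all in library 2 (6.87). The ratio of DKK1 to control reads, pooled over each group and scaled by the group's normalized floor of 3 reads rather than taken from mean normalized counts, was 1.53 with a 95% counting interval of 0.297 to 9.84, so no difference was detectable at this depth. Chia1, the acidic mammalian chitinase of stomach and lung, lies on chromosome 3 from 106113229 to 106132120, plus strand, and had 3 reads, all in control library 3 (2.96). Chil4 (Ym2), on chromosome 3 from 106201490 to 106219507, minus strand, had none. A count of 0 over the libraries of a group allows up to 3 reads, equal to means of 1.07 in control and 0.979 in DKK1 on the normalized scale.

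Per kilobase of transcript, the control libraries held 3403 ± 59.1 normalized counts of Chil1, 637 ± 18.2 of Chil3 and 128 ± 5.20 of Ctbs (SD, n = 3), an order whose steps exceed the spread. In DKK1 the same levels were 246 ± 25.0 for Chil1, 37.7 ± 36.4 for Chil3 and 20.1 ± 3.84 for Ctbs, and Chil3 and Ctbs did not differ beyond their spread. Chil1 made up 76.7% to 77.4% of the summed per-kilobase level of the 10 family genes (the members and the 4 relatives described below) in control, and 75.5%, 76.2% and 65.7% in DKK1 libraries 1, 2 and 3. The share of Chil3 was 14.2% to 14.6% in control. It was 4.49% and 6.29% in DKK1 libraries 1 and 2, below every control, and 19.4% in library 3, above every control. The family sum itself went from 4310 to 4481 in control to 291, 326 and 411 in DKK1.

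The 4 relatives Chil5, Chil6, Ovgp1 and Chid1 did not all move in the same direction. Chil5, a chitinase-like gene of the same chromosome 3 cluster, was at 65.9, 77.1 and 55.2 in control (185 reads) and at 0 in each DKK1 library. It was at least 67.5-fold lower in DKK1, taking 3 reads over the group as the floor (limma Benjamini-Hochberg adjusted p = 6.61e-07). Chil5 passed the filter on low values through its control libraries alone. The antisense gene model Gm42722 overlaps 301 of its exonic bases and went from 20.3 ± 3.71 to 0 (SD, n = 3), and without a stated strand reads of the overlap cannot be told apart. Chil6 had 0 reads throughout. Ovgp1, oviductin, a secreted chitinase-like glycoprotein best known from the oviduct, was at 566, 503 and 485 in control and 29.8, 37.1 and 20.4 in DKK1. Its groups did not overlap, and it was 17.8-fold lower (log2 change -4.14, SE 0.21, limma Benjamini-Hochberg adjusted p = 1.29e-07). Its value is uncertain, because 35.7% of its 50-base windows are shared with the gene model Gm42890 on the same strand, which went from 219.7 ± 30.8 to 33.6 ± 6.48 (SD, n = 3).

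Chid1, a lysosomal chitinase-domain protein that binds the scavenger receptor stabilin-1, was the family gene that rose. Its normalized counts were 29.7, 22.3 and 15.8 in control and 121, 90.7 and 122 in DKK1. Every DKK1 library lay above every control library, and the mean was 4.93-fold higher (log2 change 2.28, SE 0.27, limma Benjamini-Hochberg adjusted p = 4.94e-05). Its share of the per-kilobase family level went from 0.0866% to 0.157% in control to 6.58% to 9.81% in DKK1. In the alignment Chid1 had no unbroken stretch opposite the catalytic window, so no window was placed for it. It shares 292 exonic bases with Tspan4 on the opposite strand, which went from 3.29 ± 3.01 to 41.2 ± 5.38 (SD, n = 3), and reads of the overlap cannot be told apart. Per kilobase, the relatives in control stood at 197.9 ± 16.2 for Ovgp1, between Chil3 and Ctbs, then 51.0 ± 8.45 for Chil5 and 5.35 ± 1.65 for Chid1 (SD, n = 3). In DKK1, Chid1 was at 26.4 ± 4.24 and Ovgp1 at 11.1 ± 3.20 (SD, n = 3), so that Chid1 lay next to Chil3 and Ctbs within their spread.

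Chil3, Chil4, Chia1, Chil5 and Ovgp1 lie near each other on chromosome 3, and Chil1 near Chit1 on chromosome 1, so neighbouring genes were read as well. Within 200 kb of the Chil3 start, the tested protein-coding genes were Chil3, Chil5 and Ovgp1, the family genes described above. All 3 fell, beside the 36.1% of all tested genes that fell, while Chia1, Chil4 and Cimap3 were not tested. Around Chil1, 4 neighbours fell and 1 rose, beside 36.1% lower and 35.1% higher over all genes tested. Btg2, an antiproliferative gene 103 kb away, went from 15262 ± 102.2 to 677.9 ± 220.7 (SD, n = 3), 22.5-fold lower (limma Benjamini-Hochberg adjusted p = 4.05e-08). Adora1, an adenosine receptor gene, was 29.3-fold lower at 48.6 ± 7.60 and 1.66 ± 1.46 (SD, n = 3), and Mybph was 5.42-fold lower at 15.0 ± 5.89 and 2.77 ± 1.57 (SD, n = 3). Ppfia4 fell from 17.4 ± 2.08 to 7.51 ± 2.10 (SD, n = 3; limma Benjamini-Hochberg adjusted p = 0.0194), a call lost in 5 of the alternative settings. Tmem183a, 180 kb from Chil1, rose from 249.4 ± 22.1 to 477.5 ± 23.0 (SD, n = 3), 1.91-fold higher (limma Benjamini-Hochberg adjusted p = 2.18e-05), so the fall did not extend to every tested gene around Chil1.

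**Figure D2:**
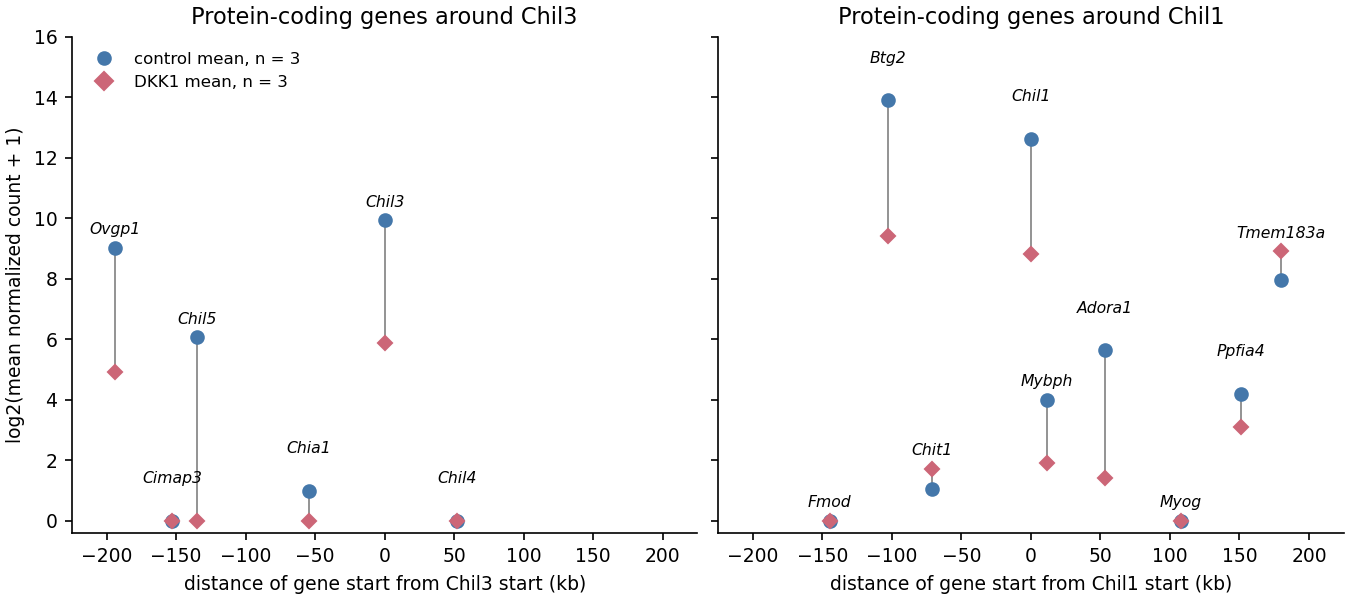
Log2(mean normalized count + 1) of protein-coding genes within 200 kb of Chil3 (left) and Chil1 (right) against the distance of their starts in kb, blue circles for control and red diamonds for DKK1 (n = 3 each). Chil3, Chil5 and Ovgp1 each lie lower in DKK1 on the left, and Tmem183a at 180 kb lies higher in DKK1 on the right.

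Because Chil3 and Chil4 are near copies, the sequence before their starts is shown to compare a transcript that was present with one that was at 0. It is given 5′ to 3′ from the RefSeq promoter table on GRCm38.p6, minus strand, as chr3:106167565-106167814 for Chil3 and chr3:106219508-106219729 for Chil4, the latter without 28 bases that GENCODE places in a Chil4 exon. Capitals mark a match on either strand to TTGCNNAA, a C/EBP motif.
Chil3: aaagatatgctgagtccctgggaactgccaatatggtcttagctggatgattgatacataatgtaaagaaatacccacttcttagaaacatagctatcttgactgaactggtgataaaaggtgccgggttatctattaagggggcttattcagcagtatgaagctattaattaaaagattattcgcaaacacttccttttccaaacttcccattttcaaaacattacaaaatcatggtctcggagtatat
Chil4: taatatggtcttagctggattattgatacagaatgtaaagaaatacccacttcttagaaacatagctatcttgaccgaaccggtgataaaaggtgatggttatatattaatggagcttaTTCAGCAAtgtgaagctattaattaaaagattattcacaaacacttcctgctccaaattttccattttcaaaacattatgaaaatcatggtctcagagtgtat
Over the full 250 bases before each RefSeq start, the genes were identical at 201 of 221 aligned bases (91.0%), with a longest shared run of 44. Chil4 held a C/EBP match whose first base was at -131, counted from the RefSeq start, and Chil3 held none, while 9.56% of 32851 promoters held it in their 250 bases. TATAAA was not compared between the copies, because the window of Chil3 ends inside that stretch in the alignment. The STAT6 motif (TTC and GAA with 4 bases between, 5.85% of promoters) and GAGGAAG (PU.1, 10.6%) had no match in either. The 250 bases before the RefSeq starts of Chil1 and Ctbs held neither these 3 motifs nor TATAAA, which 12.4% of promoters held. For Ctbs this window, chr3:146450217-146450466, lies inside the gene as GENCODE places it, from 146449795. It is therefore not sequence upstream of the GENCODE gene. These matches describe letters in a window.

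Genes with profiles most like each tested member were ranked by Euclidean distance between centred log2(normalized count + 1) values over the 6 libraries. For Chil3 the nearest were Ncam1 (0.483), Mta3 (0.611), Tgtp2 (0.617), Cacna1e (0.693) and Tgtp1 (0.704), and each had its highest DKK1 value in library 3, which the measure favours. Ncam1, a cell adhesion gene, was at 0.745, 1.37 and 5.72 in DKK1 libraries 1, 2 and 3 and at 58.1 to 72.6 in control. The DKK1 values of Ncam1, Tgtp2, Cacna1e and Tgtp1 were at most 7.35, so their excess in library 3 rests on few reads. Chil3 had 150 reads there. Mta3, a chromatin remodelling subunit with more reads, was at 8.20, 8.24 and 29.4 in DKK1 and at 292 to 306 in control. For Chil1 the nearest were Arhgap9 (0.104), Ankrd44 (0.115) and Sgk3 (0.153). For Ctbs they were Asap1 (0.257), Atg9a (0.262) and Mapk3 (0.272).

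**Figure D3:**
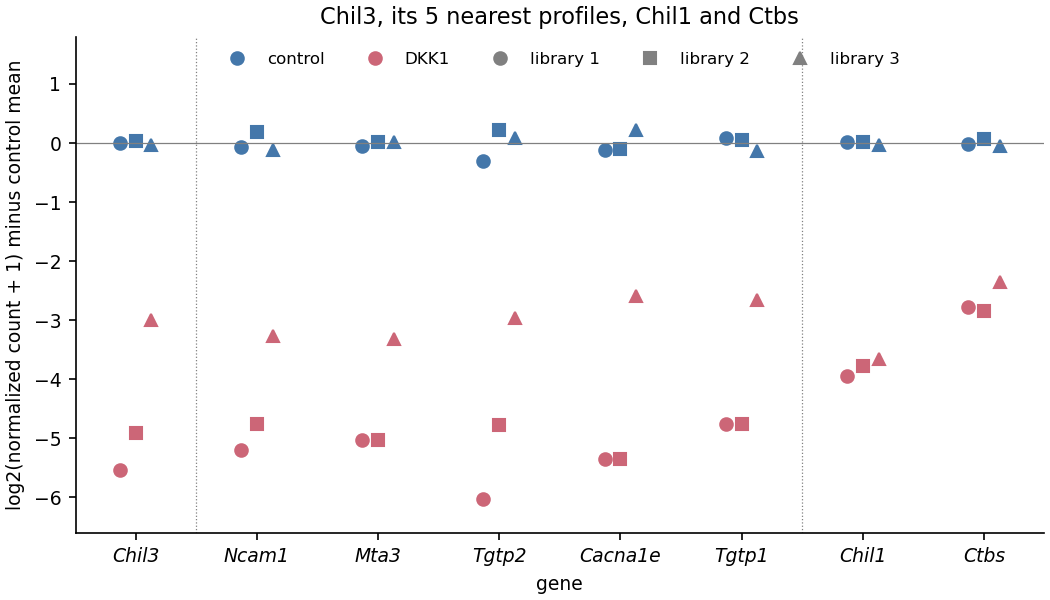
Log2(normalized count + 1) of each library minus the control mean for Chil3, its 5 nearest profiles, Chil1 and Ctbs, with control in blue, DKK1 in red and marker shape for library number. DKK1 library 3 lies above libraries 1 and 2 for Chil3 (122 against 20.1 and 31.6) and its nearest profiles, while the DKK1 libraries of Chil1 lie together (405 to 496). Ncam1, Tgtp2, Cacna1e and Tgtp1 are at most at 7.35 normalized counts in DKK1.

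Genes that complete the breakdown of N-glycans and chitobiose moved in both directions around Ctbs. Of 15 genes tested, 7 rose, 6 fell and 2 did not pass the threshold, with a median log2 change of 0.84. Over all genes tested, 35.1% rose and 36.1% fell, with a median of -0.03, and the counts of each list that follows stand beside those shares. Man2b1, the lysosomal alpha-mannosidase, was at 6657, 6443 and 6459 in control and 232.5, 223.9 and 250.7 in DKK1, 27.7-fold lower. Fuca1, the alpha-fucosidase that acts before Ctbs, fell 5.91-fold, from 1132 ± 45.2 to 192 ± 16.0 (SD, n = 3). Renbp, which acts on free N-acetylglucosamine, rose 85.1-fold, from 17.9 ± 3.78 to 1523 ± 215 (SD, n = 3). Amdhd2, the deacetylase of N-acetylglucosamine 6-phosphate, rose 6.08-fold, from 283.5 ± 10.9 to 1723 ± 219.6 (SD, n = 3). The limma Benjamini-Hochberg adjusted p of these 4 genes was at most 1.92e-08. Under scaling to equal total reads, the list split into 8 higher and 4 lower.

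Genes of receptors and partners reported for chitinase-like proteins were also split. Of 9, 7 were tested, of which 4 rose and 3 fell, with a median log2 change of 0.33. Cd44, the hyaluronan receptor, was at 17080, 16147 and 16111 in control and 2419, 2996 and 2628 in DKK1, 6.13-fold lower. Tmem219, a membrane partner in Chil1 signalling, fell 6.53-fold, from 212 ± 27.7 to 32.5 ± 4.60 (SD, n = 3). Ager, the receptor RAGE, fell 71.3-fold, from 150.2 ± 16.3 to 2.11 ± 2.04 (SD, n = 3), on 3, 0 and 5 reads in DKK1 libraries 1, 2 and 3, and was 134-fold lower without DKK1 library 3. Itgb3, integrin beta 3, rose 6.06-fold, from 431 ± 30.7 to 2610 ± 176 (SD, n = 3). Il13ra2, the receptor chain that pairs with Tmem219 for Chil1, had 0 reads in all libraries, and Ptgdr2 was not tested. The limma Benjamini-Hochberg adjusted p of the 4 changed genes named here was at most 1.00e-05.

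Among 16 tested genes for regulators of the chitinase-like genes, 4 rose, 9 fell and 3 did not pass the threshold (median log2 change -1.42), beside 36.1% lower and 35.1% higher over all genes tested. Cebpd, a C/EBP factor of myeloid cells, was at 2768, 2912 and 2854 in control and 65.6, 63.2 and 53.9 in DKK1, 46.7-fold lower. Il13ra1, a receptor chain through which IL-4 and IL-13 reach STAT6, fell 38.2-fold, from 2212 ± 68.9 to 57.9 ± 17.0 (SD, n = 3). Spi1, which encodes PU.1, fell 3.69-fold, from 5522 ± 74.3 to 1495 ± 42.2 (SD, n = 3), and Stat3 fell 3.18-fold, from 5468 ± 25.9 to 1719 ± 159 (SD, n = 3). The limma Benjamini-Hochberg adjusted p of these 4 genes, named for the smallest values in the list, was at most 3.89e-08. Under equal total reads 8 genes of the list fell.

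Chil3 is often read in macrophages as one of a set of alternative activation genes, and the set did not move with it as a whole. Of 12, 8 were tested, with 5 higher and 3 lower and a median log2 change of 2.58. Arg1, arginase 1, had 0 reads in every control library and 46.2, 70.1 and 60.4 normalized counts in DKK1, at least 55.2-fold higher with the floor of 3 reads over the group. Arg1 passed the filter on low values through its DKK1 libraries alone, and it is among the 5 counted as higher. The median is the same with Arg1 at that bound, since Arg1 stays above it. Tgm2, transglutaminase 2, rose 12.1-fold, from 985 ± 24.2 to 11958 ± 2045 (SD, n = 3). Egr2 fell 30.3-fold, from 295 ± 16.0 to 9.75 ± 3.55 (SD, n = 3), and Fn1, fibronectin, fell 13.8-fold, from 174 ± 22.4 to 12.6 ± 4.89 (SD, n = 3). Retnla, which is widely reported beside Chil3, had 0 reads in all 6 libraries. The limma Benjamini-Hochberg adjusted p of Tgm2, Egr2 and Fn1 was at most 2.49e-06.

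The list of immature neutrophil and specific granule genes, the programme in which Chil3 is usually placed, held more lower than higher genes. Of 14 genes tested, 12 fell, 1 rose and 1 did not pass the threshold, with a median log2 change of -5.13, beside 36.1% lower and 35.1% higher over all genes tested. Mmp8, neutrophil collagenase, was at 27812, 27064 and 27121 in control and 108.8, 101.7 and 114.3 in DKK1, 252.5-fold lower. Anxa1 fell 158.9-fold, Ltf, lactoferrin, 15.3-fold and Lyz2, lysozyme, 4.77-fold (limma Benjamini-Hochberg adjusted p at most 1.22e-08). Camp, the cathelicidin precursor, was at 552, 571 and 479 in control and 508, 547 and 496 in DKK1, where the groups overlapped (limma Benjamini-Hochberg adjusted p = 0.688). With equal total reads Camp passed the threshold as higher. Orm1, orosomucoid, was the gene of the list that rose, from 5.27 ± 3.64 to 853 ± 38.6 (SD, n = 3). Mature neutrophil markers fell in the same libraries, and the part of a shift in cell makeup in these values was not tested.

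**Figure D4:**
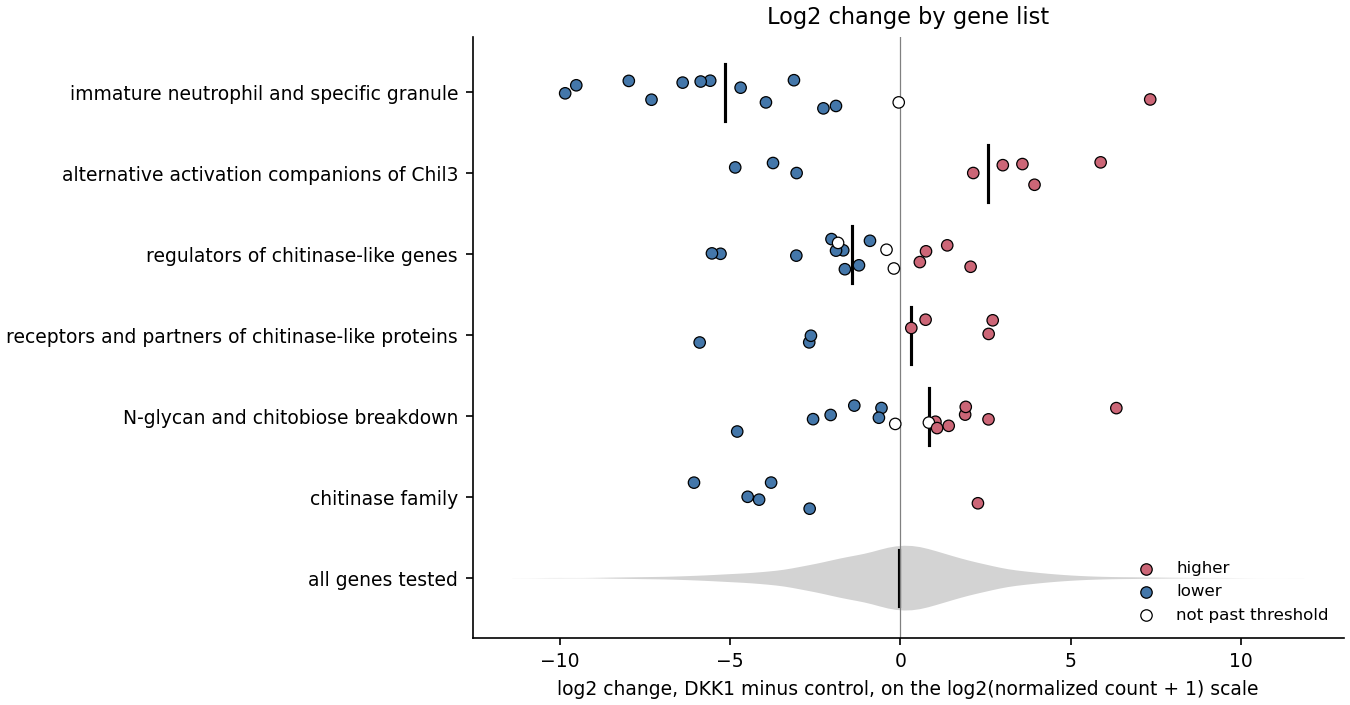
Log2 change, DKK1 minus control, of tested genes in each list and the chitinase family (points, red for higher, blue for lower, white for not past the threshold), with the median of each list as a black bar and the spread of all tested genes in grey. The median is -5.13 for the immature neutrophil list and 2.58 for the alternative activation list, against -0.03 over all genes.

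The direction of each tested family gene held in each alternative setting in which it was tested. Chil3 ranged from -5.22 to -3.95 on the log2 scale, with a largest adjusted p of 0.0239 without DKK1 library 2 (limma, Benjamini-Hochberg). Chil1 ranged from -3.86 to -3.26, Ctbs from -2.81 to -2.13, and Chid1 from 1.91 to 2.80. The fitted log2 change of Chil5 ran from -9.36 to -2.92 because its DKK1 value of 0 makes it depend on the pseudocount, so the fold bound above is the value to read.

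**Figure D5:**
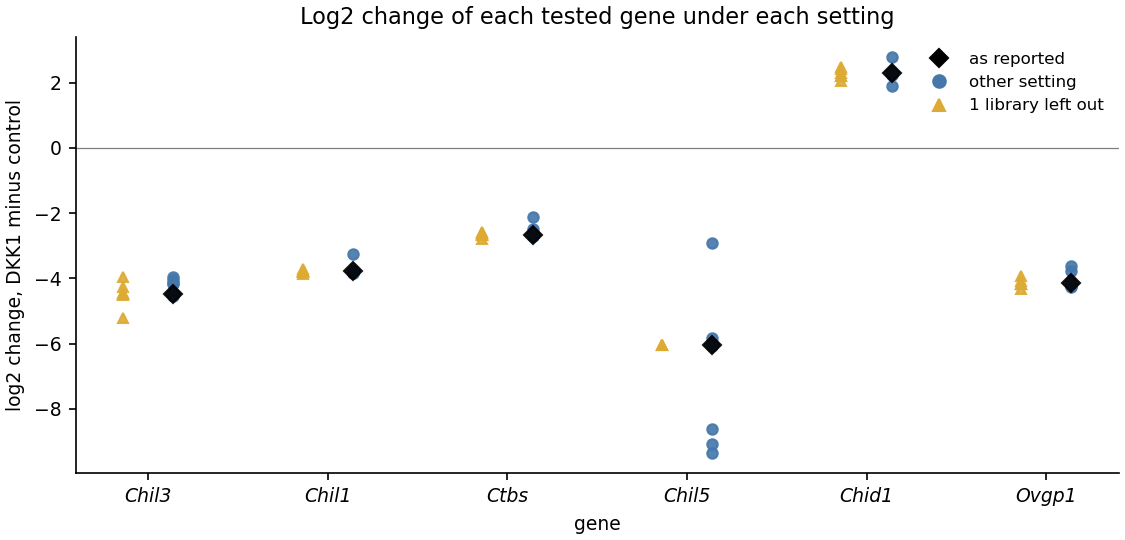
Log2 change, DKK1 minus control, of each tested family gene as reported (black diamonds), under other settings (blue circles) and with 1 library left out (yellow triangles). Each point stays on its side of 0, and the spread is smallest for Chil1, from -3.86 to -3.26, among the genes plotted whose DKK1 value is above 0.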

How the data were processed

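Total RNA was sequenced on Illumina instruments, per the labels' protocols. The authors deposited a normalized count for every gene in each library, a non-negative signal, per the file headers. The build was mm10, per the submitters' processing notes. The sources used here do not give the aligner, counting tool, annotation or normalization factors. Groups came from sample titles. The table holds 3 more columns of values that could be tied to no sample, and they were not used. All values in the 6 libraries were whole multiples of 1 read (100% within 0.001 reads), so reads were recovered.

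Tests used limma 3.58.1 in R 4.3.3 (trend, robust, two-sided) on log2(normalized count + 1), because the values are not raw counts. The filter was a value of at least 1 in at least 3 libraries, and p-values were Benjamini-Hochberg adjusted over 16265 genes with a threshold of 0.05. Folds are ratios of mean normalized counts, except for Chit1. Log2 changes on the value + 1 scale understate low genes. Alternatives used edgeR 4.0.16 and DESeq2 1.42.0 on recovered reads, other pseudocounts, filters and scalings, a replicate block and each library left out.

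The rule for named genes took the members and 4 relatives in every case, and up to 4 genes of smallest adjusted p per list. It added 3 nearest profiles (5 for Chil3) and protein-coding neighbours within 200 kb. It also allowed markers and any list gene that missed the threshold, of which Camp is named. Orm1 was named outside the rule, after its values were seen, as the gene of its list that rose. The members and lists were chosen with earlier results of these data known. On simulated data 23.9%, 61.2% and 90.9% of genes changed by a log2 of 0.5, 1 and 2 were called, and 3.31% of calls were false. The simulation ran 15195 genes, with 67, 67 and 66 changed at those sizes. It drew both groups from control levels at equal totals, whereas 71.2% of genes were called in the data. Its rates therefore describe the simulation and not this contrast.

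Without version numbers, 91.3% of identifiers matched GENCODE M21, which gave coordinates, exons and coding sequences. Upstream sequence came from RefSeq on GRCm38.p6. Python 3.11.15 and Biopython 1.88 were used. Results on some items are not reported here.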

Additional observations from a re-analysis of the deposited data

How the results depend on the processing

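Chil3, Chil1, Ctbs, Ovgp1 and Chid1 kept their direction and call in 16 alternatives each, and Chil5 in the 13 in which it passed the filter. Every DKK1 value of Chil5 was 0, so leaving out a DKK1 library could not move its log2 change of -6.05. Those fits therefore add no support for Chil5. Scaling to equal totals of reads moved the median of all genes by 0.51 on the log2 scale, and calls went from 5709 higher and 5873 lower to 7157 higher and 4617 lower, or 49.3% and 60.8% of the genes called being higher. Under that scaling the immature neutrophil list had 2 genes higher in place of 1, Camp being the added one at a log2 change of 0.49; with 1 library left out Camp ranged from -0.12 to 0.0060, and the sign turned without control library 2. Over the genome 4884 to 5379 genes were higher and 4652 to 5846 lower with 1 library left out. On recovered reads edgeR called 4982 higher and 4849 lower, and DESeq2 called 5040 higher and 5430 lower.

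Deviations of same-numbered libraries correlated at -0.0052, 0.0066 and 0.017 across genes, and those of other pairs at -0.018 to 0.011. Correlations this small do not show a pairing by sample number. They cannot exclude one, because counting error also enters the deviations. With the number as a replicate block, 5630 genes were higher and 5817 lower, and Chil3 kept its call (limma Benjamini-Hochberg adjusted p = 0.000387). Over 38 of the other genes named in the text, 596 fits kept direction and call, and Ppfia4 lost its call in 5, with log2 changes from -1.24 to -0.65. Depth limits Chit1, Chia1 and Chil4, which rest on 0 to 5 reads per group.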

Other observations

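The ranking by DKK1 library 3 over the mean of DKK1 libraries 1 and 2 took genes at 50 or more in library 3. On the value + 1 scale, those placed before Chil3 and Prg2 were Rn7s2 at 216 and Gm44183 at 52.4. Both were chosen after their values were seen. Rn7s2, a gene for the RNA of the signal recognition particle, was at 281, 0 and 441 in control libraries 1, 2 and 3, so its counts also varied among controls. Of all tested genes, 29.3% had their highest DKK1 value in library 3.

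Nearest profiles to the other family genes were Runx2os2 (distance 0.237), Adam30 (0.326) and Gvin1 (0.342) for Chil5, and Ncoa7 (0.249), Gnpnat1 (0.290) and Smpd4 (0.298) for Chid1. For Ovgp1, Thap6 (0.269) and Tcp11l2 (0.330) ranked 2 and 3. Gnpnat1 makes N-acetylglucosamine 6-phosphate, and its normalized counts were 25.3, 17.9 and 14.8 in control and 87.9, 81.0 and 108.6 in DKK1. Its groups did not overlap.

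Values of the remaining marker lists were as follows, beside 35.1% higher and 36.1% lower over all genes tested. Of 6 B cell markers 5 fell and 1 did not pass the threshold, and their summed normalized count was 1500.3 to 1636 in control and 41.2 to 105 in DKK1. Of 6 monocyte markers 2 rose, 3 fell and 1 did not pass, with sums of 3907 to 4099 and 418 to 469. Of 6 erythroid markers 4 fell and 2 did not pass, with sums of 1592 to 1735 and 300.5 to 1496. Of 6 T and NK cell markers 2 were tested and fell, with sums of 45.3 to 79.3 and 0 to 2.98. Of 6 epithelial markers 1 was tested, Cdh1, and it was called higher on low counts (log2 change 2.76). The epithelial markers summed to 0 to 1.97 in control and 8.20 to 11.0 in DKK1, with Epcam, Krt8 and Krt19 at 0 in both groups.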
